A study of Homo sapiens with 6 samples.

Results

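Nucleoporins build the nuclear pore, and importins and exportins are the receptors that carry proteins and RNAs through it. Rows of the deposited gene table were chosen by gene symbol: NUP, IPO or TNPO followed by a digit, KPNA or KPNB followed by a digit, or XPO followed by a digit or T. This gave 47 of the 19923 genes in the table, 23 nucleoporins, 18 importins and 6 exportins, of which 44 had enough counts to be tested. No measured value entered the symbol rule, but the family was taken up with the ENL to control differences of these data already known. Its calls and fold changes are therefore a description of where these genes lie in the whole-table fit, and nothing is supported with their number.

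The cells were of the human breast cancer line BT549, and RNA was sequenced from 3 ENL-treated and 3 control samples, 1 library each. What ENL stands for, its dose, the duration and what the control cells received are not stated. Separate cultures are not stated either, and p-values therefore speak of the variation among these 6 libraries, perhaps a technical one. The mesenchymal genes VIM, FN1, ZEB1 and CD44 were measured in every library, from 49.5 CPM for ZEB1 in control library 2 to 6289 CPM for VIM in ENL library 2. CDH1, EPCAM, ESR1 and PGR, which mark epithelial or hormone-responsive breast cells, stayed below 1 CPM in each library, PGR was at 0 in all 6, and ERBB2 lay between 63.3 and 81.2 CPM. PTPRC, PECAM1 and ALB, markers of leukocytes, endothelium and liver, did not exceed 1.2 CPM.

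Library totals were 74457932 to 85310759 estimated counts, and 1 sequenced fragment was worth about 4 of them. Levels are given in CPM, each count relative to its library total after trimmed-mean (TMM) scaling. A gene is called higher or lower in ENL where edgeR's quasi-likelihood test over all 14086 genes tested gave a Benjamini-Hochberg adjusted p below 0.05. Ribosomal protein genes took 12.4%, 12.9% and 10.5% of the counts in ENL libraries 1, 2 and 3, against 7.59%, 7.96% and 7.59% in control libraries 1, 2 and 3, and their part in the results was not tested. The median log2 deviation of the members from the mean control level was -0.17, -0.24 and -0.12 in ENL libraries 1, 2 and 3. ENL library 3 held the highest of the ENL values for 30 of the 44 tested members (68.2%), and for 38.5% of all genes tested. Where leaving it out changed a member's call or sign, both values are given.

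In the cell, the pore is built from repeated subcomplexes. The Y complex forms its outer rings, the inner ring lines the membrane, and nucleoporins with phenylalanine-glycine repeats fill the channel. Importin alpha proteins recognise the classical nuclear localisation signal and ride on importin beta, other importins bind their cargo directly, and exportins carry cargo out together with RanGTP. The small GTPase Ran sets the direction of transport, because it is GTP-bound in the nucleus and GDP-bound in the cytoplasm.

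Of the 44 tested members 32 had a negative and 12 a positive log2 fold change, ENL over control. Among them 12 were called lower, or 27.3%, beside 18.4% of all genes tested, and 2 were called higher, or 4.55%, beside 20% of all genes tested. The other 30 were not called. All 3 ENL libraries lay below all 3 control libraries for 23 members (52.3%, beside 27.6% of all genes) and above them for 4 (9.09%, beside 26.4% of all genes). The median log2 fold change was -0.20 for the members and -0.02 for all genes tested, and the range over members ran from -0.74 for IPO8 to 0.31 for TNPO3. The lowest member was at 60.0% of its control level and the highest at 124%. The counts moved with the scaling of the libraries. Scaling by library totals alone shifted the median of all genes to -0.23 and that of the members to -0.40, with 26 members called lower and 0 higher (beside 28.4% and 12.8% of all genes), and upper-quartile scaling gave 21 lower and 1 higher (beside 22.3% and 16.7%). After a per-library length and GC correction edgeR gave 16 lower and 6 higher (beside 21.3% and 22.9% of all genes), and a member median of -0.12. Without ENL library 3, 16 members were called lower and 2 higher, beside 19.9% and 21.9% of all genes. Without control library 3, 6 were called lower and 1 higher, beside 12.2% and 14.5% of all genes.

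Members were mostly long, and over all genes the fold change moved with transcript length, whose part in the members' values was tested only through the correction above. The median length of the longest annotated coding transcript was 5370 bases over the tested members, and 26 of the 44 fell in the longest of 4 equal length classes. In that class, from 5129 bases upward, the median log2 fold change was -0.21 for the members and -0.09 for all genes. In the class from 3326 to 5129 bases it was -0.18 for 11 members and -0.09 for all genes, in the class from 2112 to 3326 bases -0.16 for 5 members and -0.01 for all genes, and in the shortest class -0.35 for 2 members and 0.11 for all genes.

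**Figure D1:**
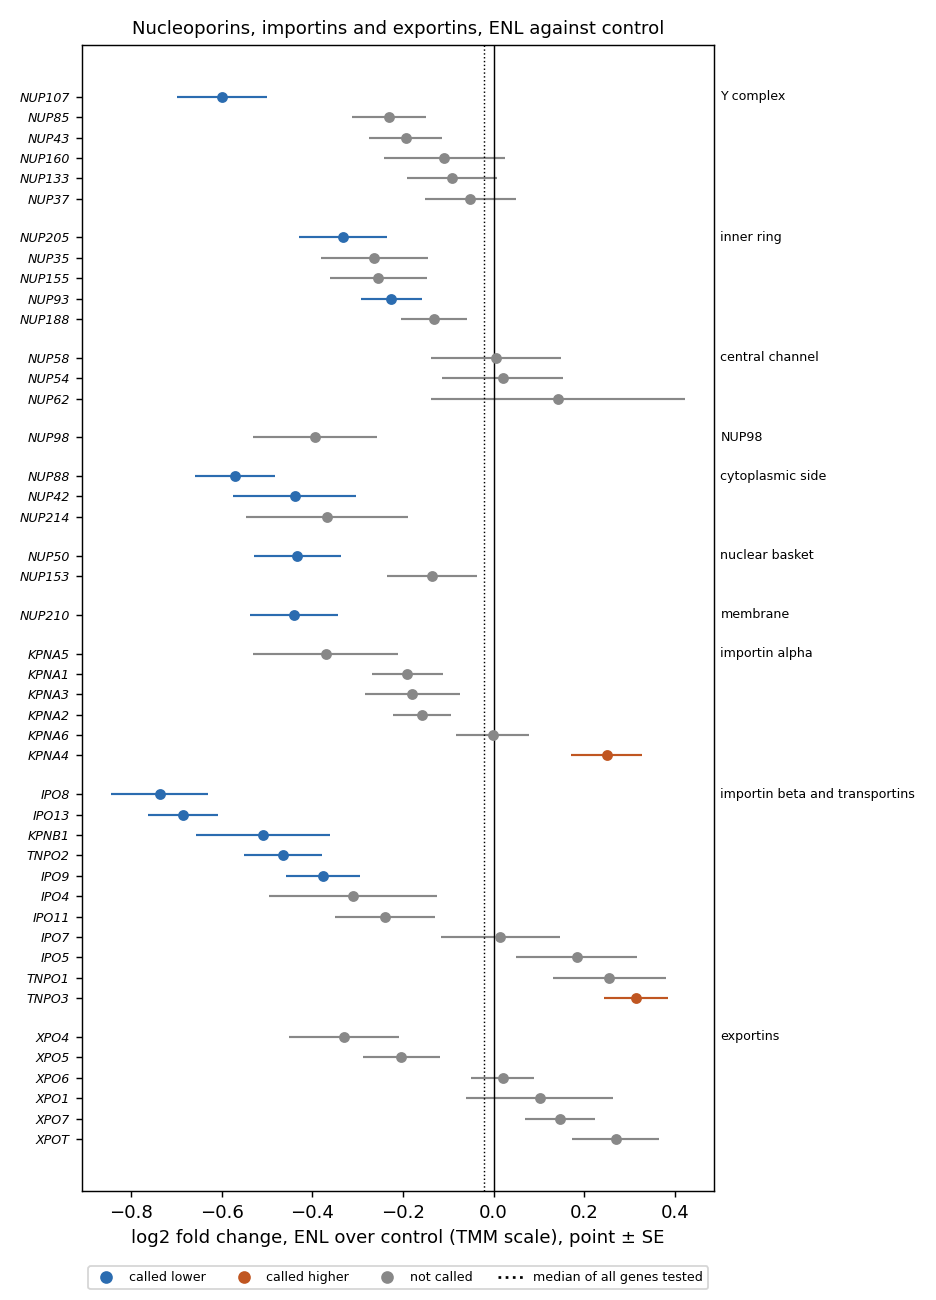
Log2 fold change of each tested member, ENL over control on the TMM scale, with its standard error (horizontal bars), grouped by role; the dotted line is the median of all genes tested (-0.02). Blue points were called lower (12 members), orange points called higher (2) and grey points not called (30).

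Levels differed far more between members than between the groups. On a per-length scale, CPM per kilobase of the longest annotated coding transcript, KPNA2 was the most abundant, at 76.8 in ENL and 85.7 in control. The next were the exportin XPO7 (48.9 in ENL and 44.2 in control), the importin IPO5 (43.4 in ENL and 38.2 in control) and the tRNA exportin XPOT (41.3 in ENL and 34.3 in control). These 3 neighbours are close enough that their order is not firm, since CPM of IPO5 ranged from 232 to 318 and of XPOT from 236 to 290 within the ENL group. NUP188 led the inner ring at 27.1 in ENL and 29.6 in control, and NUP85 led the Y complex at 25.9 in ENL and 30.4 in control. At the other end stood XPO4, at 4.01 in ENL and 5.04 in control, and KPNA5, at 1.11 in ENL and 1.43 in control. The true length of the expressed transcript was not measured, which limits such comparisons between genes.

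Of the members with too few counts for testing, NUP210L had 3, 0 and 8 estimated counts in ENL libraries 1, 2 and 3 and 0, 4 and 11 in control libraries 1, 2 and 3. KPNA7 had 4 in each ENL library, about 1 fragment, and 0 in each control library. NUP62CL had 0 in each ENL library and 3, 0 and 0 in the control libraries. At this depth no difference was detectable for these 3 genes.

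**Figure D2:**
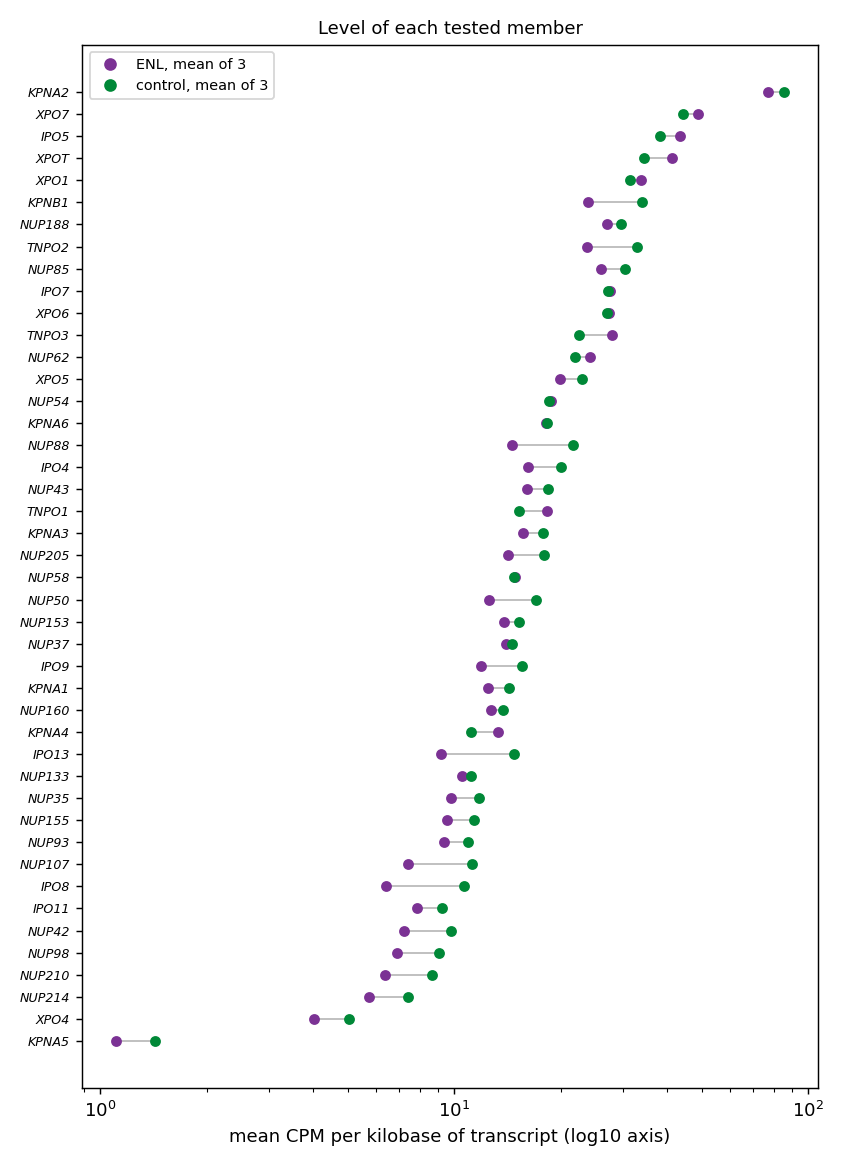
Mean level of each of the 44 tested members in CPM per kilobase of the longest annotated coding transcript (log10 axis), purple for ENL and green for control, ordered from KPNA2 at the top (76.8 and 85.7) to KPNA5 at the bottom (1.11 and 1.43).

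Of the 21 tested nucleoporins 7 fell (33.3%, beside 18.4% of all genes), 0 rose (beside 20% of all genes) and 14 were not called. DESeq2 and limma-voom also called 0 higher, and 0 had an unadjusted p below 0.05 in that direction. Their median log2 fold change was -0.23. The Y complex contributed 1 of the 7 lower calls, from 6 members (16.7%). NUP107, which joins the stem of the Y, had 47.8, 43.5 and 52.0 CPM in ENL libraries 1, 2 and 3, against 75.5, 67.2 and 74.5 CPM in control libraries 1, 2 and 3. The groups did not overlap, and the log2 fold change was -0.60 ± 0.10 (SE, n = 3 per group, edgeR adjusted p = 0.0039). Its partners were not called: NUP85 had 58.0, 54.7 and 52.4 CPM in ENL and 65.6, 61.6 and 66.4 CPM in control, again without overlap, and -0.23 ± 0.08 as the log2 fold change (adjusted p = 0.064). NUP43, NUP160, NUP133 and NUP37 had values of -0.19, -0.11, -0.09 and -0.05 on the same scale. Upper-quartile scaling and library totals alone called NUP85 (adjusted p = 0.0242 and 0.00635) and NUP43 (0.0351 and 0.00812) lower. NUP85 was also called lower with at least 10 CPM required in 3 libraries (0.0329) and after the length and GC correction (0.0207). The call of NUP107 was kept in all 16 other settings chosen for the report.

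The inner ring, the scaffold that holds the channel in the membrane, had 2 members called lower of 5 (40%, beside 18.4% of all genes). NUP205, 1 of its large scaffold proteins, had 84.1, 83.2 and 100 CPM in ENL against 118, 107 and 112 CPM in control (log2 fold change -0.33 ± 0.10, adjusted p = 0.0332). NUP93, which links the ring to the channel, had 77.1, 76.8 and 77.8 CPM in ENL against 91.7, 89.4 and 89.9 CPM in control, a tight separation of -0.23 ± 0.07 (adjusted p = 0.0352). Both calls lay close to the threshold. NUP205 was not called without control library 1, 2 or 3 (adjusted p = 0.111, 0.0654 and 0.0926) or ENL library 1 or 2 (0.106 and 0.0925), and NUP93 was not called without any of the same 5 libraries (0.112, 0.105, 0.110, 0.0970 and 0.0749). NUP93 was also not called after the length and GC correction (-0.11, adjusted p = 0.308), without a filter on low counts (0.0538) or with the replicate number in the fit (0.0583). The abundant NUP188 had 145, 157 and 160 CPM in ENL against 163, 170 and 173 CPM in control. The groups were apart, but NUP188 was not called (-0.13 ± 0.07, adjusted p = 0.198), except as lower with library totals alone (0.0164). NUP155 and NUP35 had values of -0.25 and -0.26 and were not called, although NUP155 was called lower without ENL library 3 (-0.35, adjusted p = 0.0128). NUP35 was called lower after the length and GC correction (-0.37, adjusted p = 0.0229). Library totals alone called NUP155 and NUP35 lower (adjusted p = 0.0279 and 0.0207), and upper-quartile scaling called NUP155 lower (0.0372).

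None of the 3 genes of the central channel complex, whose repeats form the permeability barrier, was called by edgeR, DESeq2 or limma-voom, and 0 had an unadjusted p below 0.05. NUP58 had 92.0, 77.8 and 113 CPM in ENL against 102, 86.7 and 93.3 CPM in control, a log2 fold change of 0.00 ± 0.14 that was 1 of the 2 smallest in the family. NUP54 had a value of 0.02 ± 0.13. NUP62 was the least repeatable member, with 115, 76.0 and 68.8 CPM in ENL and 59.7, 106 and 70.3 CPM in control (0.14 ± 0.28, adjusted p = 0.718). The sign of these 3 values turned negative with library totals alone, and without ENL library 3 NUP58 was at -0.13 and NUP54 at -0.11. The exons of NUP62 share 626 bases with those of ATF5 on the opposite strand, a gene that rose to 38.6 CPM in ENL against 24.3 CPM in control, and since the sources do not say whether strand was used in counting, NUP62 is uncertain. The same limit holds for NUP43, which shares 223 exon bases with PCMT1, and for XPO5, which shares 348 with POLR1C.

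On the cytoplasmic face, 2 of 3 members fell (66.7%, beside 18.4% of all genes). All ENL libraries lay below all control libraries for each of the 3, and for 27.6% of all genes. NUP88, which anchors the cytoplasmic filaments together with NUP214, had 43.1, 45.6 and 39.0 CPM in ENL, against 64.1, 63.4 and 62.1 CPM in control (log2 fold change -0.57 ± 0.09, adjusted p = 0.00296). It also shares exon bases on the opposite strand, 520 with RPAIN and 468 with RABEP1, and is uncertain in that measure; RPAIN rose by 0.40 on the log2 scale and RABEP1 had a value of -0.24 (adjusted p = 0.0602). NUP42, which binds the mRNA export factor GLE1, had 14.6, 12.7 and 11.6 CPM in ENL against 19.5, 16.9 and 16.2 CPM in control (-0.44 ± 0.14, adjusted p = 0.0402). The call of NUP42 was lost without control library 1, 2 or 3 (adjusted p = 0.133, 0.0845 and 0.0701) or ENL library 2 or 3 (0.0941 and 0.0817). NUP214 itself had 32.4, 53.4 and 45.2 CPM in ENL, against 54.4, 54.3 and 60.4 CPM in control. Its ENL libraries were widely spread and it was not called (-0.37 ± 0.18, adjusted p = 0.146). With library totals alone NUP214 was called lower (adjusted p = 0.0416).

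On the nuclear face, NUP50, a basket protein that helps to release cargo from importin alpha, fell. Its ENL libraries held 65.1, 63.2 and 69.0 CPM against 97.8, 80.6 and 88.1 CPM in the control libraries (log2 fold change -0.43 ± 0.10, adjusted p = 0.0119), and the call was kept in all 16 other settings. NUP153, its anchor in the basket, had 83.1, 74.2 and 93.4 CPM in ENL and 92.6, 89.7 and 93.2 CPM in control. These groups overlapped, and NUP153 was not called (-0.14 ± 0.10, adjusted p = 0.316). NUP210, a glycoprotein of the pore membrane, had 42.5, 44.4 and 50.6 CPM in ENL against 59.3, 62.9 and 64.4 CPM in control (-0.44 ± 0.10, adjusted p = 0.0115, and 0.0513 without control library 3).

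NUP98 is a single gene whose product is cut into the mobile repeat protein NUP98 and the Y complex member NUP96. It had 39.6, 49.5 and 56.4 CPM in ENL libraries 1, 2 and 3, against 63.3, 61.1 and 66.9 CPM in the control libraries, so every ENL library lay below every control library. The log2 fold change of -0.39 ± 0.14 was not called (adjusted p = 0.0581), although DESeq2 and limma-voom called it (adjusted p = 0.0370 and 0.0493). Without ENL library 3 it was -0.50 and called (adjusted p = 0.0182). Upper-quartile scaling, library totals alone, at least 10 CPM required in 3 libraries and the length and GC correction also called it lower.

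The importin beta family held the 2 lowest fold changes among all members. Of its 11 members, transportins included, 5 fell (45.5%, beside 18.4% of all genes) and 1 rose (9.09%, beside 20% of all genes). The other 5 were not called. IPO8, a carrier of Argonaute proteins and SMADs, had 36.1, 29.9 and 36.4 CPM in ENL libraries 1, 2 and 3, against 60.0, 54.0 and 56.6 CPM in control libraries 1, 2 and 3. This was the lowest fold change of the family (log2 -0.74 ± 0.11, adjusted p = 0.0023). IPO13, which carries cargo in both directions, had 34.6, 35.7 and 36.5 CPM in ENL against 55.8, 58.1 and 58.0 CPM in control. Its replicates were tight and its adjusted p was 0.000861, at a log2 fold change of -0.69 ± 0.08. Both calls were kept in all 16 other settings.

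KPNB1, the importin beta that serves classical import, had 123, 134 and 182 CPM in ENL against 199, 208 and 217 CPM in control. The log2 fold change of -0.51 ± 0.15 (adjusted p = 0.0322) depended on the library: it was -0.68 without ENL library 3 (adjusted p = 0.00139), and the call was lost without control library 1, 2 or 3 (adjusted p = 0.0711, 0.0798 and 0.0943) or without ENL library 1 or 2 (0.0861 and 0.0967). TNPO2, a carrier of RNA-binding proteins, had 113, 127 and 125 CPM in ENL against 156, 168 and 180 CPM in control (-0.46 ± 0.09, adjusted p = 0.00605), and was called in all 16 other settings. IPO9, an importer of core histones, had 127, 139 and 143 CPM in ENL against 177, 168 and 187 CPM in control (-0.38 ± 0.08, adjusted p = 0.0111, and 0.0505 without control library 3). For both genes the groups were apart.

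TNPO3, which brings serine/arginine-rich splicing factors into the nucleus, was the member that rose most. Its ENL libraries held 128, 127 and 125 CPM against 96.9, 103 and 105 CPM in the control libraries, a log2 fold change of 0.31 ± 0.07 (adjusted p = 0.0122). The value stayed above 0 under each scaling, but it was 0.11 and not called with library totals alone (adjusted p = 0.265) and 0.28 without control library 1 (adjusted p = 0.0506). IPO5, an importer of ribosomal proteins, had 232, 232 and 318 CPM in ENL and 237, 221 and 231 CPM in control, and only ENL library 3 stood above the control range. The value was 0.18 ± 0.13, and 0.03 without that library. After the length and GC correction IPO5 was at 0.26 and called higher (edgeR adjusted p = 0.0276). TNPO1, the relative of TNPO2, had 197, 173 and 241 CPM in ENL and 179, 167 and 166 CPM in control (0.26 ± 0.12, adjusted p = 0.148, and 0.13 without ENL library 3). It was called higher in 1 of the 16 other settings, the length and GC correction (0.35). IPO7 had a value of 0.02, negative with library totals, with upper-quartile scaling and without ENL library 3 (-0.12), IPO11 of -0.24 and IPO4 of -0.31, none of them called. Without ENL library 3, IPO11 was called lower (-0.33, adjusted p = 0.0148). Upper-quartile scaling and library totals alone also called IPO11 lower (adjusted p = 0.0466 and 0.0349). IPO11 shares 1279 exon bases with LRRC70 and 428 with KIF2A on the same strand. With these genes summed it was at -0.21 (edgeR adjusted p = 0.178). IPO4 shares 3470 exon bases with AL136295.4 on the same strand, and the sum of both genes was at -0.07 on the log2 scale.

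Of the 6 tested importin alpha genes 0 were called lower by the main edgeR fit (beside 18.4% of all genes), DESeq2 or limma-voom, and 2 had an unadjusted p below 0.05. KPNA2, the abundant alpha importin of dividing cells, had 188, 191 and 186 CPM in ENL against 215, 208 and 209 CPM in control. The groups did not overlap and the fold change was small (log2 -0.16 ± 0.06, adjusted p = 0.0911). KPNA2 was called lower with upper-quartile scaling (adjusted p = 0.0250), library totals alone (0.00514) and at least 10 CPM required in 3 libraries (0.0404). The length and GC correction also called it lower (-0.17, adjusted p = 0.0142). KPNA4 was called higher, with 123, 111 and 123 CPM in ENL against 104, 97.6 and 98.8 CPM in control (0.25 ± 0.08, adjusted p = 0.0409). That call was weak: it was lost with library totals alone (0.04, adjusted p = 0.721), with upper-quartile scaling (0.16, adjusted p = 0.132), with no filter on low counts (adjusted p = 0.0534), with at least 10 CPM required in 3 libraries (0.0508), and without control library 1, 2 or 3 (adjusted p = 0.0731, 0.136 and 0.127) or ENL library 1 (0.117). KPNA6 had 131, 127 and 145 CPM in ENL and 139, 129 and 136 CPM in control, and its value of 0.00 ± 0.08 was the smallest in the family and changed sign with scaling. KPNA5, KPNA1 and KPNA3 had values of -0.37, -0.19 and -0.18 and were not called, although library totals alone called each of them lower. KPNA1 was also called lower with upper-quartile scaling and with at least 10 CPM required in 3 libraries.

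Of the 6 exportins 0 were called in either direction by the main edgeR fit, beside 18.4% lower and 20% higher of all genes. Their median log2 fold change was 0.06, with a range of -0.33 to 0.27. DESeq2 and limma-voom also called 0, and 3 had an unadjusted edgeR p below 0.05, XPO4 and XPO5 lower and XPOT higher. XPO7, an exportin with a broad set of cargos, had 230, 225 and 257 CPM in ENL against 217, 211 and 216 CPM in control, and XPOT had 269, 236 and 290 CPM in ENL against 233, 216 and 211 CPM in control. In both cases every ENL library lay above every control library (0.15 ± 0.08, adjusted p = 0.178, and 0.27 ± 0.10, adjusted p = 0.0639). XPO1, the main exporter of proteins with leucine-rich signals, had 161, 133 and 203 CPM in ENL and 172, 139 and 152 CPM in control, and the groups overlapped (0.10 ± 0.16). XPO1, XPO6 and XPO7 turned negative with library totals alone, and XPO1 also without ENL library 3 (-0.05). XPO4, with 40.6, 33.7 and 45.0 CPM in ENL against 51.6, 50.9 and 47.5 CPM in control, and XPO5, the exporter of microRNA precursors, with 98.6, 105 and 116 CPM in ENL against 119, 124 and 126 CPM in control, lay lower without overlap but were not called (adjusted p = 0.0698 and 0.100). Without ENL library 3 both were called lower (XPO4 -0.41, adjusted p = 0.0248, and XPO5 -0.26, adjusted p = 0.0264). Both were also called lower with upper-quartile scaling and with library totals alone. After the length and GC correction edgeR called XPO7 higher (adjusted p = 0.00327), XPOT higher and XPO4 lower (-0.24, adjusted p = 0.0318). XPOT was also called higher without ENL library 2, and XPO4 lower with at least 10 CPM required in 3 libraries.

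**Figure D3:**
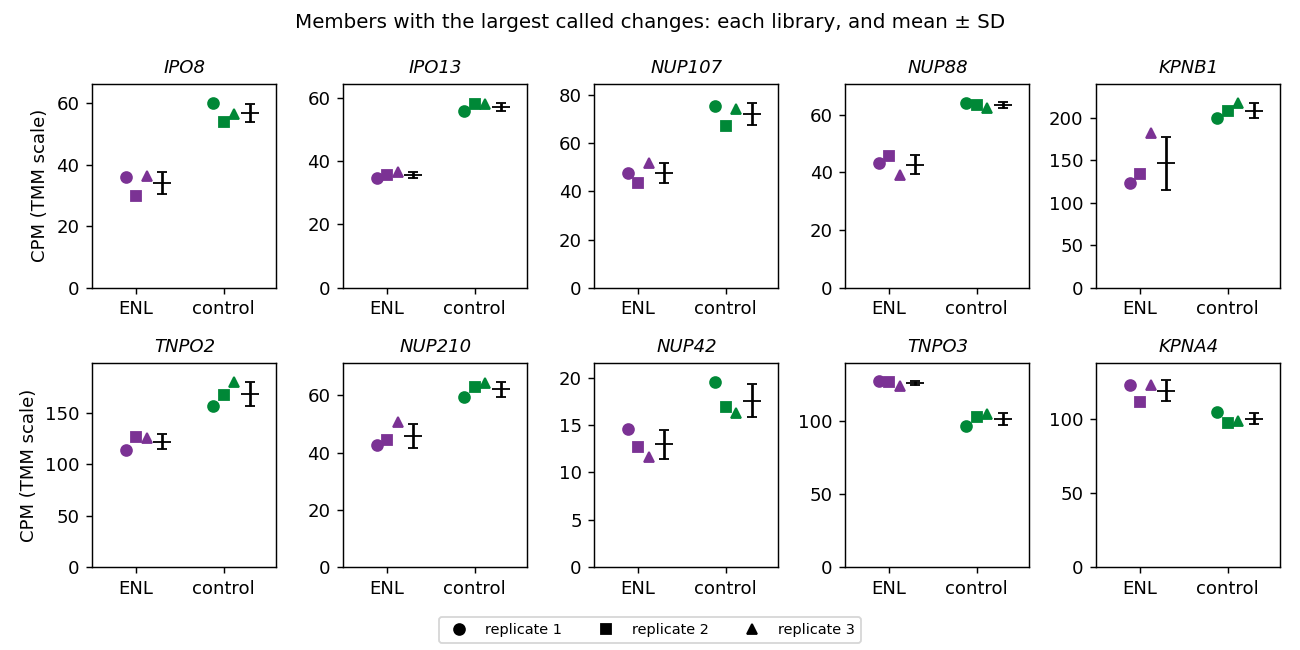
CPM on the TMM scale in each library for the 8 called-lower members with the largest changes and the 2 called higher (circle, square and triangle for replicates 1, 2 and 3), ENL in purple and control in green, with mean ± SD beside each group. In no panel do the groups overlap, and for KPNB1 ENL library 3 (182 CPM) sits between the other ENL libraries (123 and 134 CPM) and the control libraries (199 to 217 CPM). The panels were chosen by call and size of change, so their separation carries no weight. Over all genes tested, all ENL libraries lay below all control libraries for 27.6% and above for 26.4%.

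Promoter sequences of the members with the largest changes are printed so that they can be compared. They are the 200 bases just before the RefSeq start of the genes with the lowest fold changes, IPO8, IPO13 and NUP107, and of TNPO3, which had the highest, from GRCh38.p14, 5' to 3' on the gene's strand. Capitals mark matches, on either strand, to 5 motifs of ubiquitously active promoters: GCGCA and GCGC with any base N between them, bound by NRF1, CCGGAAG, bound by ETS factors, CCAAT, bound by NF-Y, CACGTG, the E-box, and GGGCGG, the GC box. The motifs were chosen after matches had been seen.
IPO8 (chr12:30695870-30696069, minus strand): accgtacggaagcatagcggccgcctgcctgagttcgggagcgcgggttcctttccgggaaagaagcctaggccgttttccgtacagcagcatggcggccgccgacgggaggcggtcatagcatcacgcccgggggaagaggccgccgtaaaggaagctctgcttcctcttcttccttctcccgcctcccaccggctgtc
IPO13 (chr1:43946750-43946949, plus strand): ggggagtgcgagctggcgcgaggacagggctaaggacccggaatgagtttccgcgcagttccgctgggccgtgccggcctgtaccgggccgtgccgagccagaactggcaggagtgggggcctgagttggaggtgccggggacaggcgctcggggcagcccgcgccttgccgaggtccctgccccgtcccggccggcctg
NUP107 (chr12:68686778-68686977, plus strand): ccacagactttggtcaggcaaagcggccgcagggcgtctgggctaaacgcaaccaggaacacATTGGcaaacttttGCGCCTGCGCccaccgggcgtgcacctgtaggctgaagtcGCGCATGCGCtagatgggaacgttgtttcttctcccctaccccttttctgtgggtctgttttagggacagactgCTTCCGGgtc
TNPO3 (chr7:129055112-129055311, minus strand): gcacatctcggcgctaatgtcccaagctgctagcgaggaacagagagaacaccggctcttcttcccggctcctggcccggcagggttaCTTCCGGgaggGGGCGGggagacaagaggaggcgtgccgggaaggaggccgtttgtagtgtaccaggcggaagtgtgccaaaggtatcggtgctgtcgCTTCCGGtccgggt

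The 4 promoters differ in these letters. The NUP107 sequence holds 2 matches to the NRF1 motif, 1 to the ETS motif and 1 to the CCAAT box, and the TNPO3 sequence 2 to the ETS motif and 1 to the GC box. Those of IPO8 and IPO13 hold 0 matches to any of the 5 in this window. Over the 250 bases before the start, with a sequence for 11 of the 12 members called lower, 7 held CCAAT (63.6%), beside 18 of 39 tested members (46.2%) and 34.9% of the 11028 tested genes with a sequence. The NRF1 motif was found in 3 of the 11, in 7 of the 39 (17.9%) and in 9.92% of all, and the ETS motif in 3 of the 11, in 12 of the 39 (30.8%) and in 15.2% of all. The E-box was in 2 of the 11, in 6 of the 39 (15.4%) and in 8.76% of all, and the GC box in 5 of the 11, in 20 of the 39 (51.3%) and in 66.6% of all. A match is a description of the letters only.

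Ratios between close relatives are described here for 7 pairs. A ratio of 2 genes within a library does not depend on how the libraries are scaled, and it was taken for 7 pairs of close relatives, of which the members KPNA4 and KPNA3, IPO7 and IPO8, and TNPO1 and TNPO2 are 3 and the others involve genes outside the symbol rule. The pairs were chosen after their values were seen, so the separation of the groups in them carries no weight and no test is given. Each ratio is written with the gene that was relatively higher in ENL on top. IPO7 exceeded IPO8 by 4.47, 4.86 and 5.60 times in ENL libraries 1, 2 and 3, against 2.96, 2.97 and 2.95 times in control libraries 1, 2 and 3. The ratio of TNPO1 to TNPO2 was 1.74, 1.37 and 1.92 in ENL against 1.15, 0.995 and 0.921 in control, and that of KPNA4 to KPNA3 was 1.69, 1.81 and 1.62 in ENL against 1.23, 1.29 and 1.28 in control. In each of these the ENL libraries lay above all control libraries.

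The same held where a member was set against a relative with another name. IPO5 exceeded RANBP6, its close relative, by 7.90, 9.15 and 8.91 times in ENL against 4.36, 4.95 and 5.00 times in control. XPO7 exceeded RANBP17 by 22.7, 18.5 and 21.5 times in ENL against 11.1, 14.4 and 13.4 times in control. For IPO5 with RANBP6 and XPO7 with RANBP17, chosen with their values known, the more abundant gene was higher in ENL relative to its scarcer relative. That is no general pattern. Per kilobase, TNPO1 and KPNA4 were scarcer than TNPO2 and KPNA3 in both groups, yet relatively higher in ENL.

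**Figure D4:**
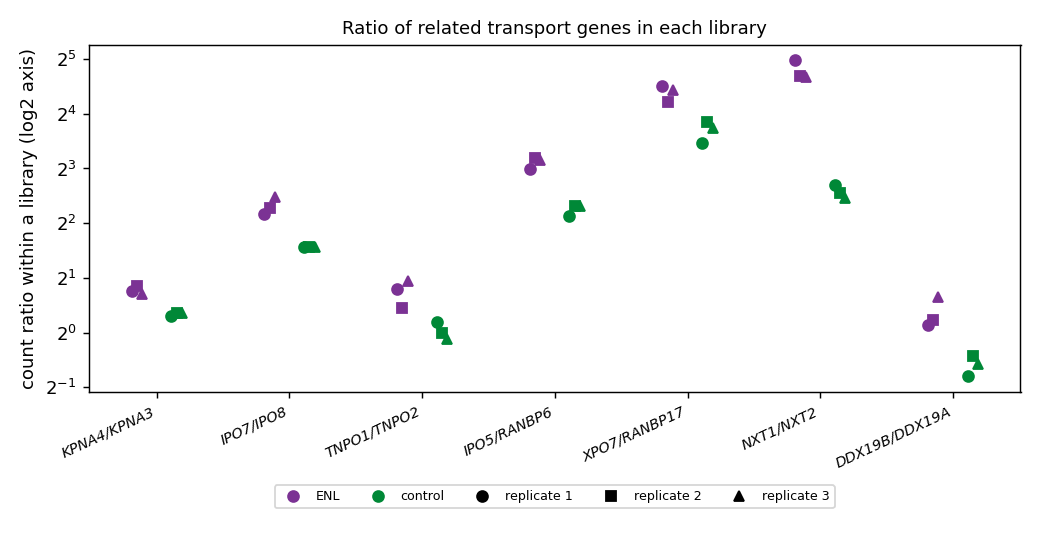
Ratio of the counts of 2 related genes within each library (log2 axis), ENL in purple to the left of control in green, for 7 pairs chosen after their values were seen. For each pair all 3 ENL libraries lie above all 3 control libraries, from a mean of 1.71 against 1.26 for KPNA4/KPNA3 to 27.6 against 5.96 for NXT1/NXT2.

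The 37 other nuclear transport genes, a list of pore proteins without a NUP number, the Ran cycle and other receptors and adaptors, were all tested. Of these 11 were called lower (29.7%, beside 18.4% of all genes) and 4 higher (10.8%, beside 20% of all genes), with a median log2 fold change of -0.08. Among 11 further pore proteins 3 fell (27.3%) and 1 rose (9.09%). TPR, the filament protein of the nuclear basket, had 186, 189 and 267 CPM in ENL against 298, 290 and 313 CPM in control (log2 fold change -0.49 ± 0.15, adjusted p = 0.0358). It shares 670 exon bases with PRG4 on the opposite strand and is uncertain in that measure. As with KPNB1, ENL library 3 was nearest to control, and without it the value was -0.66 (adjusted p = 0.000784), whereas the call was lost without control library 1, 2 or 3 (adjusted p = 0.0906, 0.0743 and 0.103) or ENL library 1 or 2 (0.105 and 0.104). The membrane nucleoporins NDC1 and POM121C fell by 0.45 and 0.35 on the log2 scale (adjusted p = 0.0121 and 0.0117, and 0.0543 for POM121C without control library 2), although POM121C and POM121 are near-identical and could share reads. RANBP2, the large protein of the cytoplasmic filaments, had 72.5, 64.4 and 83.6 CPM in ENL and 71.1, 67.4 and 66.6 CPM in control (0.10 ± 0.11).

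SEC13, which serves both the Y complex and the COPII vesicle coat, was called higher, with 103, 118 and 129 CPM in ENL against 94.6, 95.7 and 94.8 CPM in control (0.30 ± 0.09, adjusted p = 0.0453). Its call was lost in 11 of 16 other settings, among them each one without a library other than ENL library 1 (adjusted p = 0.119, 0.114 and 0.119 without control library 1, 2 and 3, and 0.0968 and 0.0578 without ENL library 2 and 3). Of the 7 Ran cycle genes 0 were called by the main edgeR fit (beside 18.4% lower and 20% higher of all genes) and 0 by limma-voom. DESeq2 called 1, NUTF2, which was higher and also had an unadjusted edgeR p below 0.05. RAN itself had 156, 425 and 293 CPM in ENL and 276, 264 and 289 CPM in control, a spread within ENL that left its value at 0.08 ± 0.35 (adjusted p = 0.88). RAN has processed pseudogenes that could share its reads.

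Among the other receptors and adaptors 8 of 19 fell (42.1%, beside 18.4% of all genes) and 3 rose (15.8%, beside 20% of all genes). CSE1L, the exportin that returns importin alpha to the cytoplasm, had 273, 261 and 274 CPM in ENL against 449, 400 and 419 CPM in control (log2 fold change -0.65 ± 0.08, adjusted p = 0.000975). Of these genes NXT2 had the lowest fold change, with 4.04, 5.20 and 4.13 CPM in ENL against 10.97, 11.96 and 11.53 CPM in control (-1.37 ± 0.15), while its relative NXT1, the partner of the mRNA exporter NXF1, rose to 127, 133 and 106 CPM in ENL, against 71.2, 70.2 and 63.5 CPM in control (0.84 ± 0.11). NXF1 itself fell by 0.50 on that scale. Of the 6 listed genes of the THO complex, which couples transcription to mRNA export, 1 rose, 2 fell and 3 were not called (THOC2 at -0.21, THOC5 at 0.22 and THOC7 at 0.05). THOC1 had 62.6, 57.1 and 63.7 CPM in ENL against 35.0, 31.0 and 32.6 CPM in control (0.90 ± 0.09), whereas THOC3 had 37.8, 36.5 and 36.4 CPM in ENL against 62.2, 63.5 and 61.5 CPM in control (-0.76 ± 0.08). THOC6 had 14.50, 16.40 and 12.03 CPM in ENL against 23.97, 23.35 and 21.79 CPM in control (-0.69 ± 0.14). On the opposite strand THOC6 shares 260 exon bases with HCFC1R1 and THOC1 shares 110 with USP14, and both are uncertain in that measure. RANBP6, the relative of IPO5, fell too, with 29.4, 25.4 and 35.6 CPM in ENL against 54.3, 44.6 and 46.2 CPM in control (-0.68 ± 0.15). CSE1L, NXT1, NXT2, NXF1, THOC1, THOC3, THOC6 and RANBP6 were called in all 16 other settings. DDX19B, an RNA helicase of mRNA export, was called higher, with 54.7, 59.5 and 50.8 CPM in ENL against 38.2, 47.5 and 43.02 CPM in control (0.36 ± 0.11, adjusted p = 0.0424) and its relative DDX19A lower (-0.55 ± 0.17, adjusted p = 0.0413), but these neighbours both share exon bases with a further gene on their strand, 711 for DDX19B and 1876 for DDX19A, and their single values are uncertain. The call of DDX19B was lost without control library 1 or 3 (adjusted p = 0.126 and 0.112) or ENL library 1 or 2 (0.0914 and 0.108), with upper-quartile scaling (0.27, adjusted p = 0.103), with library totals alone (0.15, adjusted p = 0.278) and with at least 10 CPM required in 3 libraries (0.0610). That of DDX19A was lost without control library 1, 2 or 3 (0.109, 0.0913 and 0.0966) or ENL library 1 (0.0509) and after the length and GC correction (0.0504), and its value was -0.35 without ENL library 3. RANBP17 fell by 0.56 on the log2 scale (adjusted p = 0.0247, and 0.0816, 0.0599 and 0.0755 without control library 1, control library 3 and ENL library 1).

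**Figure D5:**
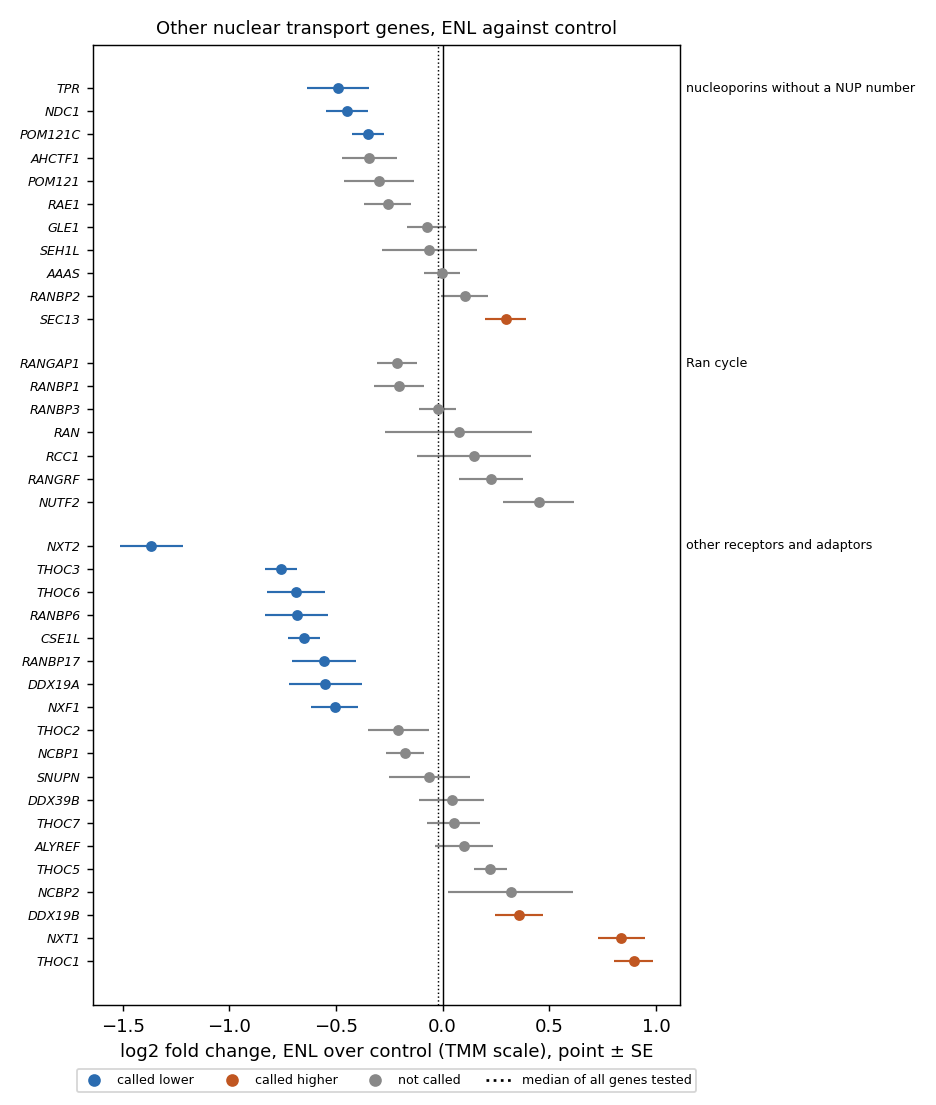
Log2 fold change with its standard error (horizontal bars) for the 37 other nuclear transport genes, ENL over control on the TMM scale; the dotted line is the median of all genes tested (-0.02). Blue points were called lower (11), orange points higher (4) and grey points not called (22), and NXT2 at -1.37 and THOC1 at 0.90 mark the ends of the range.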

How the data were processed

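RNA-seq of BT549 cells was analysed, 3 ENL and 3 control libraries, grouped by the labels' titles. Per the submitters' processing notes, which give no roles or versions, the build hg38 and the tools DESeq2, FastQC, STAR and StringTie were used. Annotation and strand are not given in the sources. The deposited table holds an estimated count per gene and library in whole numbers, so no rounding was needed; 70.8% to 73.1% of the values from 4 to 43 lie at a multiple of 4 or 1 above it, so the authors' values count 1 fragment as about 4. Low genes were removed by filterByExpr (minimum count 10). Libraries were scaled with TMM, and edgeR's robust quasi-likelihood test was used (group alone, two-sided, Benjamini-Hochberg, 0.05); the procedure was tested on simulated data. No pair of libraries of the same group agreed within sampling noise (chi-square per degree of freedom 17.4 to 44.5, on counts divided by 4). Software was DESeq2 1.42.0, limma 3.58.1, edgeR 4.0.16 and R 4.3.3.

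Members and lists were chosen with earlier results of these data known. Named with every library's value are the 8 members per direction with the largest called change and at least 5 CPM, the most abundant per kilobase in each role, the 2 of at least 20 CPM with the smallest change, up to 4 called genes per direction of the other transport genes, and RAN, RANBP2, TPR and CSE1L; other genes with such values were chosen after their values were seen. Lengths, of the longest coding transcript where there is one, and exon overlaps are from GENCODE 29 (19811 of 19923 symbols matched), and promoter sequences, at the first listed start, from RefSeq GRCh38.p14 (39 of 44 tested members matched). Alternatives were other scalings (DESeq2 size factors, upper quartile, library totals), the DESeq2 Wald test, limma-voom, 2 other filters on low counts, counts divided by 4, a length and GC correction, replicate number as a block, leaving out each library and, added after seeing the data, neighbours that share at least 100 exon bases on 1 strand summed. The ± values of log2 fold changes are standard errors, the absolute log2 fold change over the square root of edgeR's quasi-likelihood F. That test shares information on variance between genes, so they are not the spread of a gene's own libraries.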

Additional observations from a re-analysis of the deposited data

How the results depend on the processing

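Beside 12 members called lower and 2 higher, upper-quartile scaling gave 21 and 1 and library totals alone 26 and 0. Over all genes upper-quartile scaling called 22.3% lower and 16.7% higher, and library totals alone 28.4% and 12.8%. The member median of -0.20 became -0.28 and -0.40 under these 2 scalings, and -0.12 with the length and GC correction. That correction called 6 members higher, beside 22.9% of all genes. The count of higher members was 1 both without a filter on low counts and when 10 CPM were required in 3 libraries (beside 15.8% and 23.4% of all genes). The other transport genes called lower, 11, became 17 with library totals alone, and those called higher, 4, became 2 with library totals, with upper-quartile scaling and with the filter of 10 CPM. The cause of each of these shifts was not tested. With 1 library left out at a time, 6 to 16 members were called lower and 0 to 3 higher, with a median of -0.22 to -0.18. Of the other transport genes 8 to 13 were called lower and 2 to 6 higher. Over all genes the same fits called 12.2% to 19.9% lower and 14.5% to 21.9% higher. The lowest member count lower was without control library 3 and the highest without ENL library 3, and so were the shares of all genes called lower.

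Replicate numbers are shared between the groups, but same-numbered libraries correlated in their deviations at 0.03, 0.05 and 0.08 only, so the numbers were not taken as pairs. With the number as a block, 11 members were called lower and 2 higher (beside 16.4% and 18.7% of all genes), with NUP93 lost (adjusted p = 0.0583). Of the other transport genes 11 were called lower and 3 higher, with SEC13 (0.0609) and RANBP17 (0.0681) lost. Each library but ENL library 1, which lay nearest to control library 2, correlated best with its own number, a hint from the data and not from the design.

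No called member changed sign in any of the 16 settings, and 6 members (IPO8, IPO13, NUP107, NUP88, NUP50 and TNPO2) were called in all 16. The sign of 9 members that were not called depended on scaling (NUP62, NUP54, NUP58, KPNA6, IPO5, IPO7, XPO1, XPO6 and XPO7). How many of all genes kept their call or sign in every setting was not counted, so these counts do not set the members apart. Each setting refits the same data, and a called gene rarely changes sign under it. Over all genes the calls were 2819 higher and 2585 lower, against 1804 and 3996 with library totals alone and 2356 and 3136 with upper-quartile scaling. With neighbours summed, 12 members were called lower and 2 higher, beside 18.4% and 20% of all genes. The depth left 3 members untested.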
